A study of Mus musculus with 12 samples.

Results

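The combination of anti-PD-1 and palbociclib was compared with vehicle in subcutaneous tumors grown from LLC1-shLkb1 cells in C57BL/6 mice. LLC1 is a mouse Lewis lung carcinoma line, and shLkb1 marks a short hairpin RNA against Lkb1 (Stk11), the kinase whose loss makes lung adenocarcinoma poor in T cells and resistant to PD-1 blockade. The series holds 12 tumors in 4 arms of 3. The 3 tumors labelled anti-PD-1+Palbociclib and the 3 labelled Vehicle were selected by their treatment labels, 6 of the 12 tumors. Mice of the combination arm received palbociclib at 100 mg/kg by mouth on the first 3 days of each weekly cycle and anti-PD-1 (clone RMP1-14, 200 µg per mouse) by intraperitoneal injection 3 times a week. Mice of the vehicle arm received a control IgG, and tumors were collected after 2 weeks. All tumors carried the Lkb1 hairpin, so no LKB1-intact tumor served as a reference, and the time between the last dose and collection was not given in the sources used here. Whether the hairpin line was a pool or a single clone, and the sex and exact age of each host, were not given either.

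Palbociclib inhibits CDK4 and CDK6, the kinases that cyclin D activates to phosphorylate the RB protein. Phosphorylated RB releases E2F factors, which switch on genes for DNA synthesis and, in sequence, for mitosis. Anti-PD-1 blocks an inhibitory receptor on T cells. Activated T cells release interferon gamma, which acts on guanylate-binding proteins, immunity-related GTPases, antigen presentation genes and T cell attracting chemokines in tumor, myeloid and stromal cells. Whole tumors were sequenced, so fewer cells of a type and less RNA per cell cannot be told apart in any value below.

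Expression was given as FPKM, fragments per kilobase of gene, scaled to the mapped total,, which compares genes per length. Of 34678 gene symbols, 21506 were above 0 in at least one of the 6 tumors and 11155 had a mean of at least 1 FPKM over them. These 11155 genes were tested. The smallest steps between low values placed the depth between about 15421896 and 20272649 fragments per tumor. A log2 difference below is the mean log2(FPKM + 0.1) of the combination tumors minus that of the vehicle tumors, with its standard error (SE), and understates the change of genes near 0. Adjusted p is the Benjamini-Hochberg value over all 11155 genes from a limma fit on the 12 tumors. The groups of a gene are said not to overlap when all 3 combination tumors lay on one side of all 3 vehicle tumors. The labels number 3 samples per arm, and the tests measure the spread between these tumors.

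The tumors' own make-up was checked before the arms were compared. Krt8, a simple-epithelial keratin, ran from 62.0 to 152 FPKM in the 6 tumors. Sprr1a, a squamous gene of the same list, ran from 8.503 to 18.9 FPKM. Epcam, Krt18 and Krt19 were under 0.3 FPKM in 5 tumors, whereas combination replicate 1 held 1.38 FPKM of Epcam, 5.08 of Krt18 and 4.39 of Krt19. Stk11 was 10.6, 11.5 and 9.74 FPKM in the vehicle tumors and 8.60, 11.4 and 10.3 in the combination tumors, which overlapped. Tissue around the graft was present unequally. Adiponectin (Adipoq), an adipocyte hormone, reached 102 FPKM in combination replicate 1 and at most 1.17 in the other 5 tumors. Muscle creatine kinase (Ckm) was 10.7 FPKM in vehicle replicate 1 and 21.9 in combination replicate 2, with at most 0.349 in the other 4. The alarmin S100a8, a neutrophil marker, was 116 FPKM in vehicle replicate 3 and at most 16.2 elsewhere. These 4 tumors return below wherever a list follows them.

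At an adjusted p under 0.05, 2 of 11155 genes differed between combination and vehicle (0.0179%), Ccdc127 and Nr1d2, and both fell. The comparison held far more genes at lower confidence. At an unadjusted p under 0.05, 1190 genes (10.7%) were higher and 1006 genes (9.02%) were lower in the combination. Groups did not overlap for 1466 genes with the combination higher (13.1%) and 1355 genes with the combination lower (12.1%). The median log2 difference over all genes was 0.04. A difference of at least 1 on the log2 scale was seen for 227 genes that were higher and 132 genes that were lower. At an adjusted p under 0.2, 637 genes were higher and 555 were lower. Apart from the called genes, the genes named here are described by their values. The split between directions rested on scaling. Of the genes at an unadjusted p under 0.05, 54.2% were higher, compared with 35.9% after rescaling to TPM, 43.0% after quantile normalization and 45.4% after centering on the median.

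**Figure D1:**
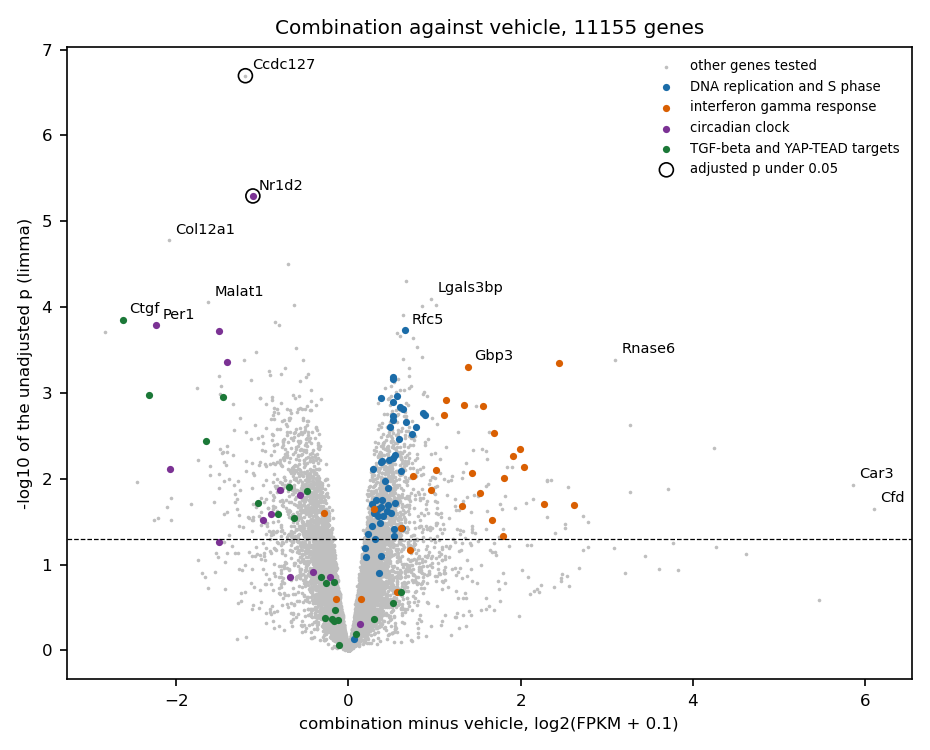
Each point is one of the 11155 genes, with its log2 difference between combination and vehicle on the x axis and -log10 of its unadjusted limma p on the y axis; colors mark 4 gene lists, rings mark the 2 genes with an adjusted p under 0.05, and the dashed line lies at an unadjusted p of 0.05. Ccdc127 and Nr1d2 stand at the top left, the replication genes form a narrow cloud between 0.06 and 0.89, and the interferon gamma genes reach 2.62.

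Ccdc127, a coiled-coil protein gene of little-known function at chr13:74350309-74365783 (GRCm38, plus strand), had the smallest p of all genes. It was 7.21, 6.07 and 5.95 FPKM in the vehicle tumors and 2.95, 2.54 and 2.71 in the combination tumors. The combination tumors lay far below every vehicle tumor. The log2 difference was -1.20 (SE 0.10, n = 3 per arm, limma adjusted p = 0.00225), a 2.29-fold lower mean on that scale, and it passed in each of the 12 fits that left out 1 tumor. In a fit of the 6 compared tumors alone 0 genes passed, so neither Ccdc127 nor Nr1d2 was called. The single-drug tumors did not share the low level of Ccdc127, with 6.29 to 7.04 FPKM after palbociclib and 5.96 to 6.50 after anti-PD-1. Ccdc127 was also called against palbociclib, where 2 genes passed (0.0179%), and was the single gene called against anti-PD-1 (0.00896%). The other gene that passed against palbociclib was Gm20559, a noncoding transcript at 3.06, 3.86 and 3.85 FPKM in the combination and 6.28 to 8.32 after palbociclib. With 1 tumor left out, the count against palbociclib was 5 without palbociclib replicate 2 and 1 in every other such fit. In vehicle tumors Gm20559 was 3.17 to 3.51 FPKM, so the combination lay at the vehicle level.

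Nr1d2 encodes REV-ERB beta, a nuclear receptor that represses Bmal1 (Arntl) and is itself driven by the circadian clock. The clock is a loop in which CLOCK and BMAL1 bind E-boxes and switch on Per, Cry, Nr1d and the PAR-bZIP factors Dbp and Tef, whose products close the loop. Nr1d2 was 9.29, 8.29 and 9.13 FPKM in the vehicle tumors and 3.47, 4.75 and 4.08 in the combination tumors, without overlap. It fell by 1.11 on the log2 scale (SE 0.13, n = 3 per arm, limma adjusted p = 0.0283), and passed in 6 of the 12 fits with 1 tumor left out. The single drugs gave 4.12 to 5.43 FPKM after palbociclib, which overlapped the combination, and 5.09 to 5.90 after anti-PD-1, which lay between the combination and vehicle.

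The clock list as a whole lay low in the combination. Of its 19 genes, 14 were tested, 13 of them lower on average, and 8 did not overlap, all lower, against 12.1% of all genes in that direction. For 2 of the 14 the combination mean was under 1 FPKM, so they passed the filter through the vehicle tumors. The median log2 difference was -0.94 and ran from -1.21 to -0.68 as single tumors were left out. Per1, a light- and glucocorticoid-inducible repressor of the loop, was 25.6, 65.6 and 19.6 FPKM in vehicle tumors and 4.72, 7.95 and 8.17 in combination tumors. Vehicle replicate 2 was the highest, yet the lowest vehicle tumor was still above every combination tumor. The log2 difference was -2.23 (SE 0.40, limma adjusted p = 0.116) and stayed between -2.59 and -1.72 with any 1 tumor left out. Tef, the PAR-bZIP output factor, was 3.40, 5.10 and 3.06 FPKM in vehicle and 1.29, 1.26 and 1.23 in the combination. Nr1d1, which encodes REV-ERB alpha, was 6.73, 15.98 and 10.3 FPKM against 3.48, 4.68 and 3.47. Both genes were without overlap, at log2 differences of -1.50 and -1.41. Per2 (-2.08), Per3 (-0.80) and Cry2 (-0.56) lay on the same side without overlap. In Per2 most of the distance came from vehicle replicate 2, with 7.44 FPKM against 1.19 and 1.33 in the other vehicle tumors and 0.324 to 0.572 in the combination. The positive arm differed less. Arntl was 3.31, 4.89 and 3.68 FPKM in vehicle and 4.97, 4.05 and 3.91 in the combination, the single list gene with a higher mean. Clock was 4.17 to 4.70 against 3.78 to 3.87 FPKM, lower without overlap by a small margin. Bhlhe40, a repressor that hypoxia also induces, was 6.65, 40.6 and 19.0 FPKM against 5.25, 7.56 and 5.53, and here the lowest vehicle tumor fell inside the combination range. Dbp stayed under 1 FPKM in all but vehicle replicate 2 (2.65) and was not tested. The list median was -0.82 in palbociclib tumors and -0.60 in anti-PD-1 tumors relative to the same vehicle tumors. The hour at which tumors were collected was not given in the sources used here.

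The promoters of the clock list were read for the E-box, since it is the site through which CLOCK and BMAL1 act. In RefSeq promoters (GRCm38.p6), 12 of the 14 tested clock genes (85.7%) had a sequence, and 5 of these 12 (41.7%) held CACGTG, a motif that reads the same on both strands, within 250 bases before a start site. The same letters stood in 6.86% of all 27025 genes of the promoter table. The 5 genes were Per1, Cry1, Tef, Bhlhe41 and Ciart. Below are 150-base stretches of 3 of them on the gene's strand, 5′ to 3′, with the E-box in capitals. They are Per1 (chr11:69098723-69098872, plus strand), Tef (chr15:81802486-81802635, plus strand) and Ciart (chr3:95882229-95882378, minus strand).
Per1: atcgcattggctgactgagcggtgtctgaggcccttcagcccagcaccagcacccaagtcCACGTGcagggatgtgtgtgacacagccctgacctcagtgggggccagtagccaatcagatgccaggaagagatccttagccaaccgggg
Tef: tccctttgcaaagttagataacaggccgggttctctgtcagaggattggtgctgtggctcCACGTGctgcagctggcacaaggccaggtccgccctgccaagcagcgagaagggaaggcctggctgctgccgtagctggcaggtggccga
Ciart: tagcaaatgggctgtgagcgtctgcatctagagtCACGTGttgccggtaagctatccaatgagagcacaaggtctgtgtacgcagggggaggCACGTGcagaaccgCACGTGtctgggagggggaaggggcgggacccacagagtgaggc
Holding the motif did not separate the genes by value. Ciart, with 3 copies in this window, was 1.75, 3.77 and 3.66 FPKM in vehicle and 1.89, 1.67 and 1.75 in the combination, which overlapped, and Nr1d2 and Nr1d1 held no copy in the bases searched.

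Cell cycle genes lay higher in the combination. All 50 genes of the DNA replication list had a higher mean, 44 of the 50 did not overlap with the combination higher against 13.1% of all genes, and 44 were at an unadjusted p under 0.05 against 10.7%. None was called. The smallest adjusted p of the list was 0.116 (limma), for Rfc5, a subunit of the clamp loader. The differences were small and even, with a median of 0.46 on the log2 scale, a 1.38-fold difference, and a range from 0.06 to 0.89. The list mean was 4.15, 4.16 and 4.16 on the log2 scale in the combination tumors and 3.85, 3.56 and 3.66 in the vehicle tumors. The 3 combination tumors thus differed among themselves by less than the vehicle tumors did (SD 0.0024 against 0.15). Palbociclib alone and anti-PD-1 alone gave list medians of 0.33 and 0.25 relative to the same vehicle tumors.

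Ccne1 and Cdc6 had the largest differences of the list. Ccne1, cyclin E1, the CDK2 partner that acts after cyclin D, was 8.94, 4.30 and 6.09 FPKM in vehicle and 11.6, 11.2 and 11.6 in the combination (log2 difference 0.89, SE 0.22). Cdc6, which loads the replicative helicase on origins, was 3.85, 2.31 and 3.20 against 6.22, 5.58 and 5.15 FPKM (0.86, SE 0.21). Both were without overlap. Of the fork machinery, the sliding clamp Pcna was 53.7, 38.2 and 48.6 FPKM in vehicle and 77.7, 68.5 and 75.3 in the combination. Rfc5 was 7.90, 6.24 and 6.43 against 11.4, 10.9 and 10.3 FPKM. The helicase subunit Mcm7 was 28.7, 21.99 and 26.4 against 36.2, 37.3 and 36.4 FPKM. In each of these the combination tumors lay in a narrow band above every vehicle tumor. Rrm2, the regulated subunit of ribonucleotide reductase, was 80.5, 86.1 and 62.2 FPKM against 106, 107 and 113, and Tk1, a thymidine kinase of the salvage route, was 15.8, 14.9 and 12.3 against 20.4, 24.5 and 20.7. Mcm2 overlapped, and Dtl, which targets Cdt1 for degradation, was 3.42 to 4.66 FPKM in vehicle and 3.12 to 5.22 in the combination.

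The mitosis list followed. All 43 genes had a higher mean, 32 of the 43 did not overlap against 13.1% of all genes, and the median log2 difference was 0.47, between 0.38 and 0.61 with any 1 tumor left out. Spc25, a kinetochore subunit, was 5.98, 3.99 and 4.85 FPKM in vehicle and 9.43, 8.13 and 7.18 in the combination (0.74, SE 0.19, limma adjusted p = 0.162). Mybl2, a factor of the complex that turns on G2/M genes, was 29.8, 20.1 and 20.1 against 35.0, 36.2 and 38.3 FPKM. Plk1, a mitotic kinase, was 26.2, 15.8 and 15.6 against 28.6, 35.8 and 29.7. In all of these vehicle replicate 1 was the highest vehicle tumor and came nearest to the combination. The spread was wider at cyclin B1 (Ccnb1), at 4.24, 6.26 and 3.17 FPKM in vehicle and 10.3, 13.03 and 4.63 in the combination, which overlapped. The proliferation marker Mki67 was 62.8, 46.3 and 47.7 against 65.1, 68.9 and 64.8 FPKM, a separation of the lowest combination tumor from the highest vehicle tumor by little more than 2 FPKM. At an unadjusted p under 0.05 the replication list held 44 genes, and as few as 29, without vehicle replicate 2, and the mitosis list held 36, and as few as 12, without vehicle replicate 3. Without vehicle replicate 1 the whole comparison called 49 genes, 32 higher and 17 lower, of which 4 belonged to the replication list and 1 to the mitosis list. Replication-dependent histone genes, which are made in S phase without a poly(A) tail, had a median of -0.23 and no non-overlapping gene among 9 tested.

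**Figure D2:**
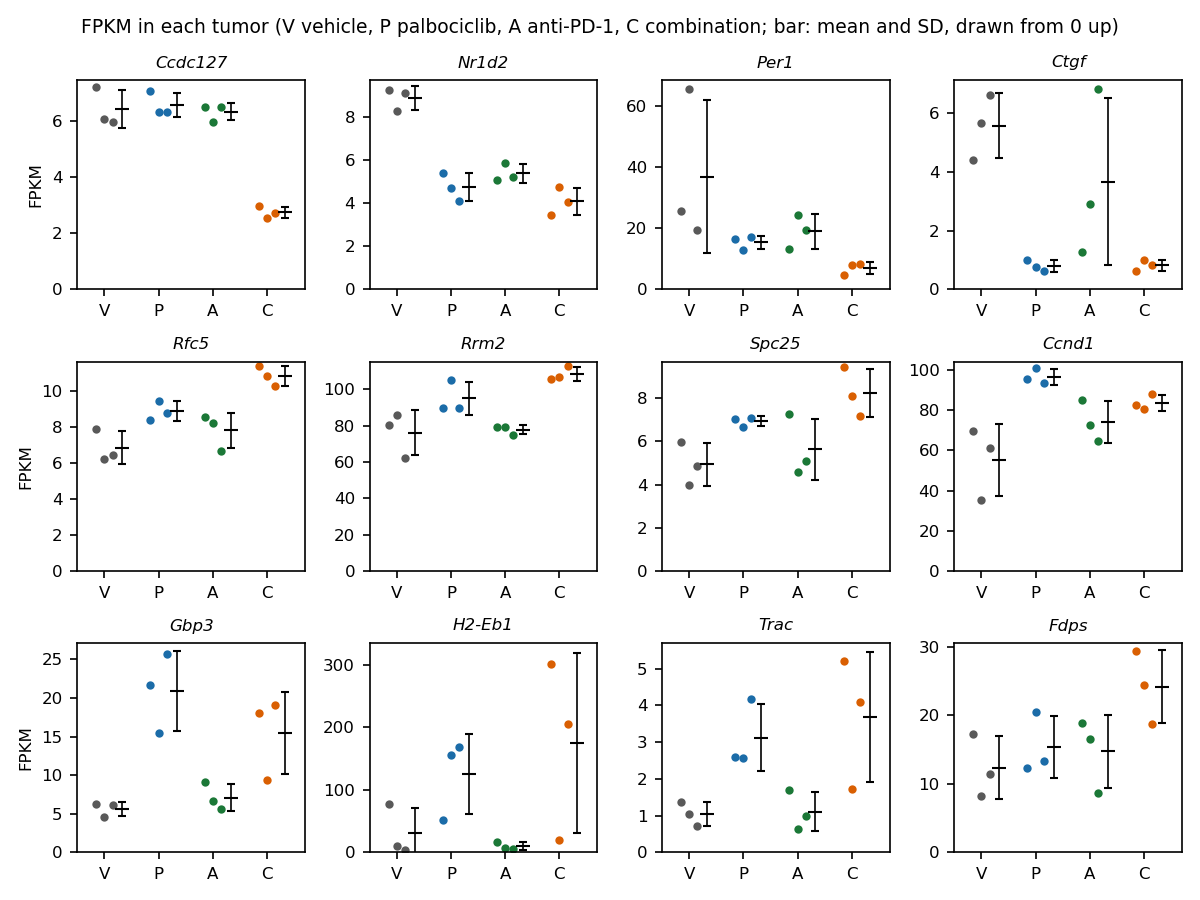
Each panel shows 1 gene, with FPKM on the y axis starting at 0 and the 4 arms on the x axis; points are the 3 tumors of an arm and bars give the mean and SD. Ccdc127 is low in the combination alone, Nr1d2 and Per1 are lowest there, Rfc5 is 10.3 to 11.4 FPKM in the combination and at most 7.90 in vehicle, and H2-Eb1 and Trac show combination replicate 2 near the vehicle tumors.

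The drug's own targets and their partners differed less. Of 19 genes for cyclin D, CDK4/6, RB and CDK inhibitors, 16 were tested, and their median log2 difference was 0.13. Of these 16, 4 did not overlap with the combination higher and 1 with it lower, against 13.1% and 12.1% of all genes. Ccnd1, cyclin D1, was 69.6, 35.3 and 61.4 FPKM in vehicle and 82.7, 80.4 and 88.3 in the combination (0.65, SE 0.21, limma adjusted p = 0.175). Rbl1, the E2F-driven RB relative p107, was 8.81 to 10.7 against 11.999 to 13.2 FPKM. Both lay above vehicle without overlap. Cdkn1b, which encodes the CDK inhibitor p27, was 8.61, 19.1 and 10.1 FPKM in vehicle and 5.61, 8.43 and 6.75 in the combination, below vehicle in all 3. Cdk4 overlapped between the arms (47.7 to 62.1 against 48.9 to 61.0 FPKM). Cdk6 was 6.98 to 7.47 FPKM in vehicle and 7.18, 2.29 and 9.73 in the combination, so its mean difference of -0.39 came from replicate 2 and turned to 0.22 without it. Cdkn1a, which encodes p21, was 12.8 to 21.9 against 11.3 to 15.1 FPKM, and Cdkn2a was close to 0 in all 6 tumors.

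Promoter letters were also read for the cell cycle lists. E2F factors bind TTTNNCGC, and NF-Y binds CCAAT, a box common in G2/M promoters; both strands were searched. Of 43 mitosis genes, 35 (81.4%) had a RefSeq promoter, 24 of these 35 (68.6%) held CCAAT and 1 (2.86%) held the E2F letters, while 37.5% and 4.94% of all genes in the table did. Among the 8682 tested genes with a promoter the shares were 41.1% and 8.64%. CCAAT was not particular to the mitosis list, as 10 of the 12 clock promoters (83.3%) held it. For the replication list fewer than 80% of genes had a promoter (39 of 50), so the share for that list is void. As examples, Cdk1 (chr10:69352913-69353062, minus strand) is shown with the 2 CCAAT boxes of this stretch in capitals, which read ATTGG on this strand, and Mcm7 (chr5:138171959-138172108, minus strand) with its E2F letters in capitals, read from the other strand.
Cdk1: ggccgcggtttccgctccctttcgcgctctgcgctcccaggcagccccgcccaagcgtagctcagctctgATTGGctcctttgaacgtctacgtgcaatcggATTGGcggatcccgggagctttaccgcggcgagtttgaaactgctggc
Mcm7: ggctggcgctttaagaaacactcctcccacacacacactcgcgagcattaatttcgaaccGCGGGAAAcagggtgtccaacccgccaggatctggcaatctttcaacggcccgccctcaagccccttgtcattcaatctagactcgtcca
Cdk1, the mitotic kinase, was 36.0, 25.9 and 30.1 FPKM in vehicle and 47.0, 40.5 and 37.7 in the combination, without overlap.

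Metabolic lists were examined next. Cholesterol synthesis lay higher, with all 23 tested genes above vehicle on average and a median of 0.63. Groups did not overlap for 9 of the 23, against 13.1% of all genes. The pathway is switched on by SREBP2 when cell sterol is low. Fdps, which makes farnesyl diphosphate, was 17.3, 8.29 and 11.5 FPKM in vehicle and 29.4, 24.4 and 18.7 in the combination (log2 difference 1.0004, SE 0.34, limma adjusted p = 0.181). Acat2, a thiolase at the start of the pathway, was 15.3, 7.29 and 9.02 against 25.7, 18.6 and 16.5 FPKM. Insig1, the sterol-responsive anchor of SREBP, was 20.6, 17.6 and 17.99 against 49.0, 31.3 and 25.2 FPKM. In these genes combination replicate 1 was the highest of the 6 tumors, and it also held most adipocyte RNA. The part of that tissue in the list's difference was not tested. Srebf2, which encodes SREBP2, overlapped at 40.3 to 51.7 against 47.9 to 54.2 FPKM. Of the 23 genes, 15 were higher at an unadjusted p under 0.05, against 10.7% of all genes. Without combination replicate 1 these were 3 and the list median was 0.48, and without vehicle replicate 2 they were 2 and the median was 0.47. The list medians of the single drugs were 0.13 for palbociclib and -0.01 for anti-PD-1. Nuclear genes of oxidative phosphorylation differed by little but evenly, with a median of 0.21. Of 53 genes, 23 were without overlap, all higher, against 13.1% of all genes. The 23 became 14 after rescaling to TPM. Atp5o, a stalk subunit of ATP synthase, was 32.6 to 33.8 FPKM in vehicle and 51.5, 53.0 and 40.0 in the combination. Ribosomal protein genes (median -0.08), lysosomal genes (0.15) and ATF4 and unfolded protein response genes (0.01) were near the median of all genes. The last of these medians became -0.05 under the most different scaling. Of the 49 ribosomal genes, 4 were higher and 4 lower without overlap, against 13.1% and 12.1% of all genes.

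Hypoxia and glycolysis genes were lower on average for 29 of 32 genes, with a median of -0.51, but 2 of the 32 did not overlap, against 12.1% of all genes. The vehicle tumors were split. Slc2a1, the glucose transporter GLUT1, was 35.6, 171 and 172 FPKM in vehicle and 38.7, 49.2 and 41.7 in the combination. Ddit4, a hypoxia-induced inhibitor of mTORC1, was 39.7, 234 and 115 against 34.5, 36.5 and 36.8 FPKM. Vehicle replicate 1 sat with the combination tumors. Without it 29 of the 32 genes did not overlap, all lower, and the median was -0.80. In that setting 2233 of all genes were lower without overlap, compared with the 1355 that make up the 12.1%. Without vehicle replicate 2 the median was -0.27. NRF2 targets had a median of 0.12 over 25 genes, with 4 higher and 3 lower without overlap, against 13.1% and 12.1% of all genes. The antioxidant gene Srxn1 was 15.4 to 17.5 FPKM in vehicle and 24.9 to 31.2 in the combination. Hmox1, which encodes the heme-degrading enzyme heme oxygenase-1, went the other way, at 161, 112 and 152 against 31.0, 55.6 and 109 FPKM. Both were without overlap.

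**Figure D3:**
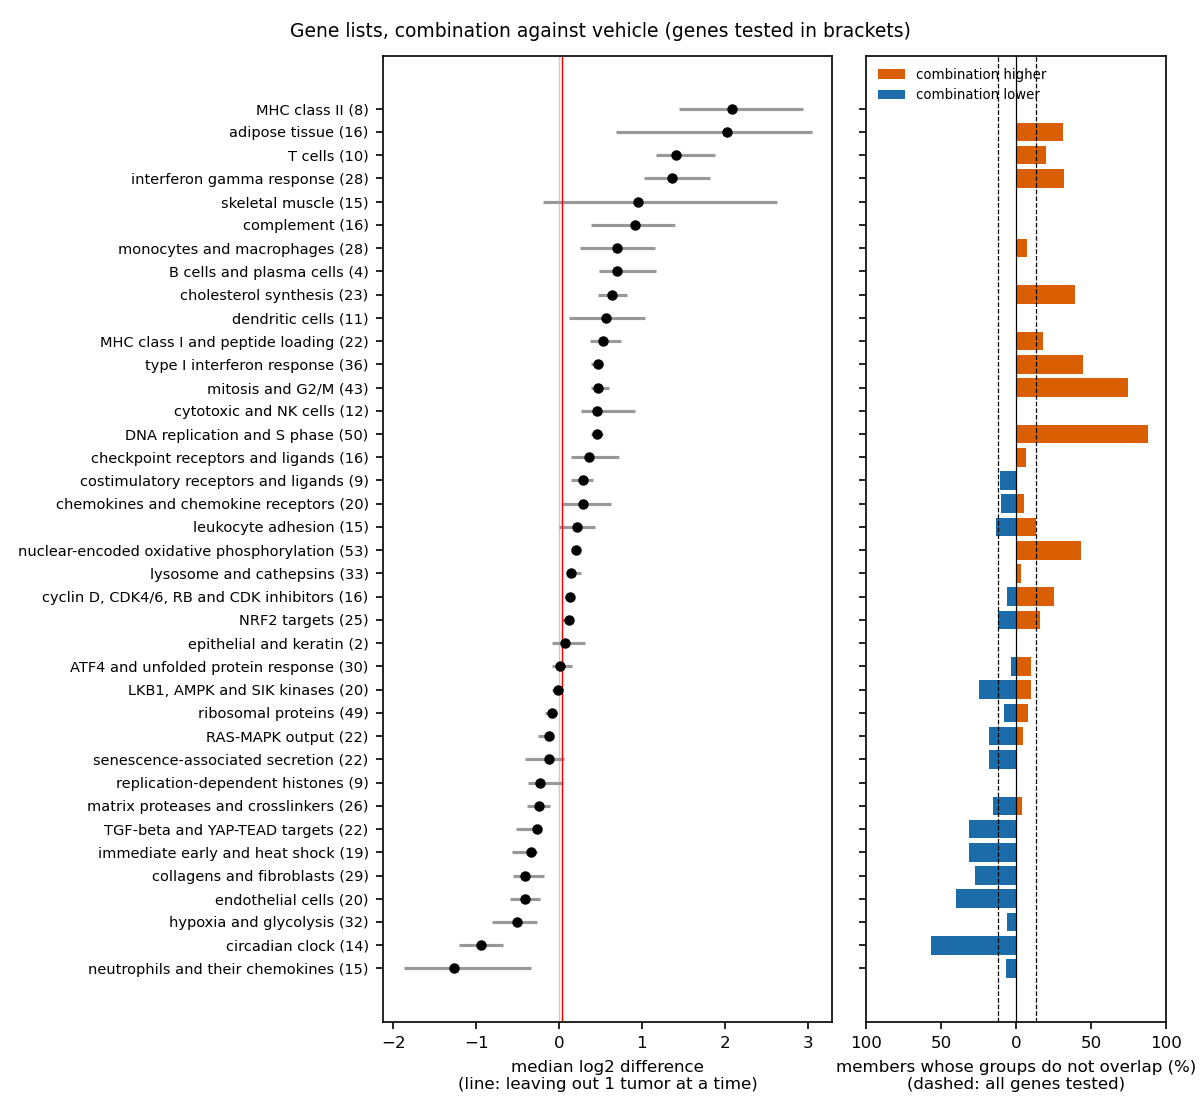
Left, the median log2 difference between combination and vehicle for each of 38 gene lists (dot), with its range when 1 tumor was left out (gray line) and the median of all genes (red line); right, the percentage of the list's tested genes whose groups do not overlap, higher to the right and lower to the left, with dashed lines at 13.1% and 12.1% of all genes. The replication and mitosis bars are the longest although their medians (0.46 and 0.47) are smaller than those of MHC class II (2.09) and adipose tissue (2.03), whose ranges are wide.

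Interferon response genes were higher, in a pattern that set combination replicate 2 apart from combination replicates 1 and 3. The interferon gamma list had a median of 1.36 over 28 tested genes, with 26 higher on average. At an unadjusted p under 0.05, 23 were higher, against 10.7% of all genes. Groups did not overlap for 9, all higher, against 13.1% of all genes. The list mean was 2.67, 1.56 and 2.14 on the log2 scale in vehicle tumors and 3.87, 2.53 and 3.79 in combination tumors, so that replicate 2 lay inside the vehicle range. Replicate 2 was also the combination tumor with most skeletal muscle RNA (list mean 3.88 above the vehicle mean on the log2 scale) and least macrophage RNA (0.16 above, against 1.09 and 0.94), and the part of these tissues was not tested. Gbp3, a guanylate-binding GTPase, was 6.21, 4.60 and 6.10 FPKM in vehicle and 17.99, 9.42 and 19.1 in the combination (1.39, SE 0.28, limma adjusted p = 0.162). The immunity-related GTPase Igtp was 14.3, 5.75 and 10.4 against 40.2, 16.7 and 33.9 FPKM, and Irgm2 was 7.97, 3.78 and 7.49 against 20.2, 9.56 and 19.6. In all of these replicate 2 was the lowest combination tumor and still above vehicle. Socs1, the feedback inhibitor of the receptor's kinases, showed no such order, at 6.99, 3.35 and 5.74 against 9.72, 10.1 and 14.97 FPKM. The chemokine Cxcl10 was 7.87 to 9.87 FPKM in vehicle and 17.2, 14.003 and 25.0 in the combination, without overlap. For 3 of the 28 genes the vehicle mean was under 1 FPKM, so they passed the filter through the combination tumors. Without combination replicate 2, 25 of the 28 genes did not overlap, all higher. In that setting 2207 of all genes were higher without overlap, compared with the 1466 that make up the 13.1%. The list median was then 1.82. Without vehicle replicate 2 it was 1.03, and the genes higher at an unadjusted p under 0.05 went from 23 to 14 there and without combination replicate 1 or 3. The median was 1.72 in palbociclib tumors and -0.03 in anti-PD-1 tumors relative to the same vehicle tumors. Gbp and Irg genes are families of close copies, and the counting could have divided fragments among them.

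The type I interferon list had a smaller and more even difference, with a median of 0.47, 34 of 36 genes higher on average and 16 of the 36 without overlap, against 13.1% of all genes. Ifih1, the cytosolic RNA sensor MDA5, was 1.26 to 1.38 FPKM in vehicle and 2.42, 1.90 and 2.38 in the combination (0.70, SE 0.19, limma adjusted p = 0.162). Ifit3, an antiviral effector, was 13.98 to 16.9 against 21.1, 31.4 and 29.9 FPKM, and here replicate 2 was the highest tumor. Palbociclib alone gave a larger list median of 1.33. Lgals3bp, a secreted glycoprotein gene that interferon induces, was chosen after its values were seen. It was 19.3, 22.7 and 25.7 FPKM in vehicle, 37.4, 44.6 and 50.4 in the combination, 64.5 to 92.2 after palbociclib and 43.5 to 48.4 after anti-PD-1. The combination lay above vehicle without overlap (0.96, SE 0.16, limma adjusted p = 0.108) and below palbociclib, at a log2 difference of -0.86.

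The promoters of Gbp3 (chr3:142559894-142560043, plus strand) and Socs1 (chr16:10785537-10785686, minus strand) are shown for their interferon-stimulated response element letters, GAAA and GAAA with 2 bases between, searched on both strands and found in 3.46% of all genes of the table. Each holds 2 overlapping copies, printed in capitals, which read from the other strand in Gbp3. Of the interferon gamma list 20 of 28 genes had a promoter, under 80%, so no share is given for the list.
Gbp3: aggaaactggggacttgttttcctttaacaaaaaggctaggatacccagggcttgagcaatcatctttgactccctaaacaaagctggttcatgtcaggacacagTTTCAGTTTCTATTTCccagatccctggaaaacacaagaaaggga
Socs1: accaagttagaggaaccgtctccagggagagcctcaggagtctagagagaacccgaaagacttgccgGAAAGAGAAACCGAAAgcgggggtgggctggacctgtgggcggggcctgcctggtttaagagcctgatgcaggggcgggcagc
Both genes had every combination tumor above every vehicle tumor, as described above.

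Antigen presentation differed by class. MHC class I and peptide loading genes had a median of 0.53, with 21 of 22 higher on average. Groups did not overlap for 4 of the 22, all higher, against 13.1% of all genes. H2-T22, a nonclassical class I molecule, was 17.4, 15.1 and 18.8 FPKM in vehicle and 32.5, 23.2 and 28.7 in the combination. The peptide-loading chaperone Tapbp was 60.8, 48.1 and 56.0 against 84.5, 68.0 and 95.6 FPKM, and the immunoproteasome subunit Psmb10 was 59.2, 21.4 and 33.1 against 97.2, 60.8 and 101. In each the lowest combination tumor was replicate 2. The classical gene H2-K1 was 89.8, 78.5 and 101 FPKM in vehicle and 133, 64.6 and 117 in the combination, and replicate 2 was below all vehicle tumors. Class II genes had a median of 2.09 over 8 genes, all higher on average, but none of the 8 was free of overlap. Palbociclib alone and anti-PD-1 alone gave class II medians of 2.11 and -0.57 relative to the same vehicle tumors. H2-Eb1, a class II beta chain, was 77.9, 10.1 and 4.58 FPKM in vehicle and 301, 19.3 and 205 in the combination. Vehicle replicate 1 exceeded combination replicate 2 by a wide margin. Without combination replicate 2 all 8 genes did not overlap and the median was 2.94. In that setting 2207 of all genes were higher without overlap, compared with the 1466 that make up the 13.1%. Without vehicle replicate 1 the median was 2.93, and 7 of the 8 genes did not overlap. There 3080 of all genes were higher without overlap. The median was 1.45 without vehicle replicate 3 and 1.53 without combination replicate 1, and the genes at an unadjusted p under 0.05 went from 7 to 0 in both cases and without vehicle replicate 2 or combination replicate 3.

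T cell genes were present at low levels. Of 24 genes, 10 reached a mean of 1 FPKM and could be tested. For 5 of these 10 the vehicle mean was under 1 FPKM, so they passed the filter through the combination tumors, and their direction was set by it. The list median of 1.42 is given as a description alone, and 2 of the 10 were higher without overlap, against 13.1% of all genes. Relative to the same vehicle tumors the median was 1.27 in palbociclib tumors and 0.02 in anti-PD-1 tumors. Trac, the constant region of the T cell receptor alpha chain, was 1.36, 1.06 and 0.710 FPKM in vehicle and 5.21, 1.73 and 4.09 in the combination (1.63, SE 0.43, limma adjusted p = 0.162), on an estimated 216 fragments over the 6 tumors. Cd8b1, the CD8 beta chain, was 0.740, 0 and 0.332 FPKM against 2.53, 0.786 and 1.79, on an estimated 150 fragments. Cd8b1 passed the filter through the combination tumors, and both counts are small. Trbc2, a beta chain constant region, overlapped because vehicle replicate 1 (2.80 FPKM) exceeded combination replicate 2 (2.61). Pdcd1, the receptor that anti-PD-1 blocks, was 1.20, 0.269 and 0.485 against 1.94, 0.876 and 1.98 FPKM, and it too passed the filter through the combination tumors. Cytotoxic and natural killer genes had a median of 0.46 and no non-overlapping gene among 12. Granzyme B (Gzmb) was 9.52, 26.7 and 24.9 FPKM in vehicle and 41.9, 15.4 and 32.0 in the combination, and perforin (Prf1) was 4.28, 14.8 and 10.5 against 11.8, 5.16 and 10.8, both with wide overlap. The median of these cytotoxic genes was 0.92 without combination replicate 2. B cell and plasma cell genes had 4 tested members and a median of 0.70 (1.17 without vehicle replicate 1).

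Myeloid lists pointed in opposite directions. Monocyte and macrophage genes had a median of 0.70 with 23 of 28 higher on average and 2 higher without overlap, against 13.1% of all genes. The median was 0.25 without vehicle replicate 3 and 1.16 without vehicle replicate 1. In palbociclib tumors it was 0.92 and in anti-PD-1 tumors -0.12, relative to the same vehicle tumors. For 3 of the 28 genes, Retnla, Ccr2 and Ly6c2, the vehicle mean was under 1 FPKM. Ly6c2, a marker of inflammatory monocytes, was 1.04, 0.431 and 1.01 FPKM in vehicle and 2.38, 1.76 and 2.80 in the combination, without overlap. Retnla, a marker of alternatively activated macrophages, was 1.40, 0.651 and 0.165 against 50.01, 16.3 and 0.722 FPKM, in the same order as the adipocyte genes. Complement C1q and the pan-macrophage genes overlapped, as C1qa did at 210, 122 and 25.6 against 303, 121 and 263 FPKM. Rnase6, an antimicrobial ribonuclease of myeloid cells, was 0.602, 0.0605 and 0.230 FPKM in vehicle and 5.24, 1.30 and 2.99 in the combination, without overlap, and it too passed the filter through the combination. Neutrophil genes were lower on average in all 15 tested, with a median of -1.27, and 1 of the 15 did not overlap, Cxcl1, a ligand of the neutrophil receptor CXCR2, at 14.9, 38.7 and 85.9 against 9.57, 14.3 and 14.6 FPKM. Of all genes, 12.1% were lower without overlap. For 3 of the 15 neutrophil genes the combination mean was under 1 FPKM. These 3 passed the filter through the vehicle tumors, and their direction was set by it. The median of the neutrophil list was -0.34 without vehicle replicate 3, the tumor that held most S100a8. In palbociclib tumors the neutrophil median was -1.60 and in anti-PD-1 tumors 0.35, relative to the same vehicle tumors. Dendritic cell genes had a median of 0.57 and none of 11 without overlap, and complement genes had a median of 0.92 and none of 16 without overlap. Without vehicle replicate 3 these medians were 0.12 and 0.38. Checkpoint receptors and ligands had a median of 0.36, with 1 of 16 genes higher without overlap, and costimulatory receptors and ligands had 0.29, with 1 of 9 lower without overlap. Among all genes 13.1% were higher and 12.1% were lower without overlap. For 3 of the 16 and 3 of the 9 the vehicle mean was under 1 FPKM, so they passed the filter through the combination tumors. Leaving out 1 tumor gave 0.14 (without combination replicate 3) to 0.73 (without combination replicate 2) for the checkpoint list. For the costimulatory list it gave 0.14 (without vehicle replicate 3) to 0.41.

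**Figure D4:**
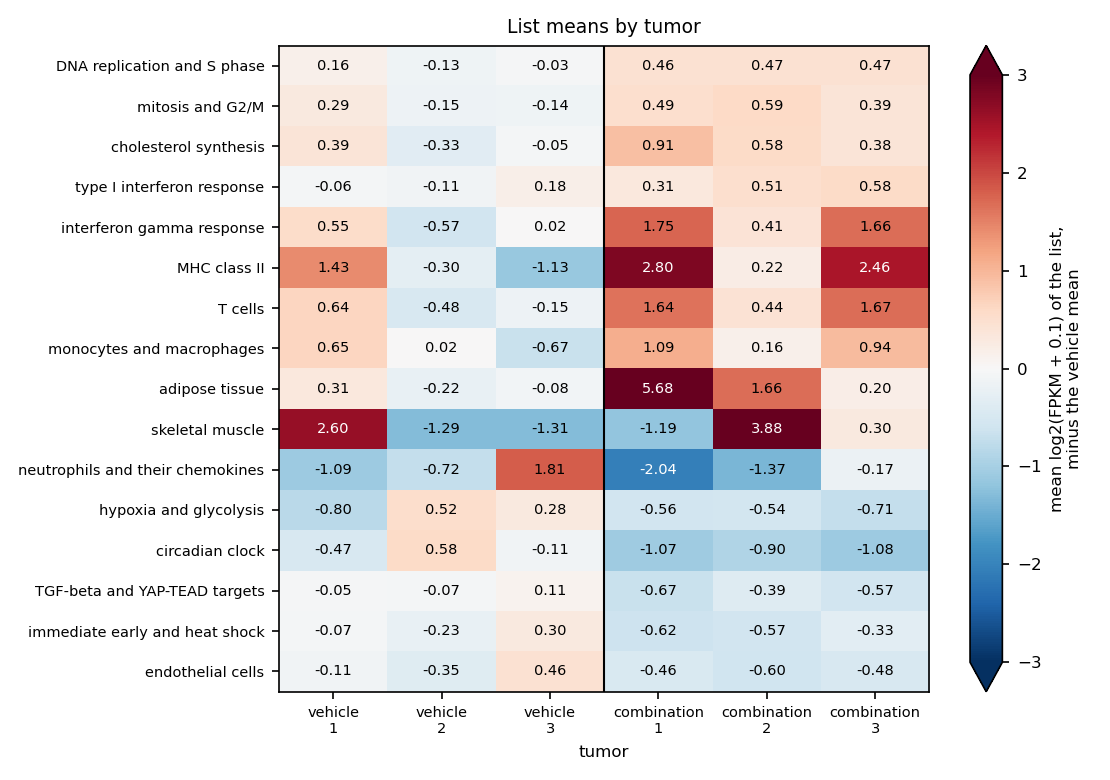
Each row is a gene list and each column a tumor; the number and color give the mean log2(FPKM + 0.1) of the list's tested genes minus the mean of the 3 vehicle tumors. The replication row is 0.46 to 0.47 in all combination tumors, the interferon gamma, MHC class II and T cell rows are high in combination replicates 1 and 3 and low in replicate 2, and the adipose and muscle rows follow single tumors.

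Stromal and mechanical signalling genes were lower. Of 26 TGF-beta and YAP-TEAD target genes, 22 were tested, 18 of these were lower on average and 7 did not overlap, all lower, against 12.1% of all genes. YAP and TEAD act downstream of the Hippo pathway and of cell tension. Ctgf, their matricellular target, was 4.41, 5.65 and 6.61 FPKM in vehicle and 0.617, 1.005 and 0.843 in the combination (-2.62, SE 0.46, limma adjusted p = 0.116), the most negative log2 difference of the 12 named for size in that direction. Every vehicle tumor exceeded every combination tumor by more than 3 FPKM. The combination mean of Ctgf was 0.822 FPKM, under the minimum of 1, so it passed the filter through the vehicle tumors. Cyr61 was 36.2, 25.6 and 65.1 against 10.5, 17.5 and 10.3 FPKM, and Smad7, the TGF-beta feedback inhibitor, was 2.54, 3.58 and 4.18 against 1.61, 1.61 and 1.49. The median of the whole list was -0.27 (-0.52 without combination replicate 2), so the difference was held by part of it. Ctgf was at 0.622 to 0.998 FPKM after palbociclib alone and 1.27 to 6.81 after anti-PD-1 alone.

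Collagen and fibroblast genes had a median of -0.41, with 25 of 29 lower on average and 8 without overlap, all lower, against 12.1% of all genes. For 2 of the 29, Col12a1 among them, the combination mean was under 1 FPKM, so they passed the filter through the vehicle tumors. Without vehicle replicate 1 the median was -0.18. Col12a1, a fibril-associated collagen at chr9:79598991-79718831 (GRCm38, minus strand), had the smallest adjusted p among genes that were not called (0.0623, limma), at 4.55, 2.75 and 3.50 FPKM in vehicle and 0.575, 1.30 and 0.562 in the combination (-2.08, SE 0.29). Fibronectin (Fn1) was 28.6 to 32.7 against 16.1 to 19.5 FPKM, and the basement membrane chain Col4a1 was 58.6, 81.8 and 85.4 against 45.8, 47.7 and 47.0. The combination tumors were again close to each other and below vehicle. Col1a1 behaved otherwise, at 58.0, 5.13 and 3.54 FPKM in vehicle and 22.6, 10.1 and 0.685 in the combination, with wide spread in both arms and a difference of -0.87 that turned to 0.38 without vehicle replicate 1. Matrix protease genes had a median of -0.24 (-0.10 without combination replicate 2), with Mmp11, a stromelysin of tumor stroma, at 12.9 to 17.4 against 7.84 to 9.89 FPKM.

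Endothelial genes had a median of -0.41 with 8 of 20 without overlap, all lower, against 12.1% of all genes. Without vehicle replicate 3 the median was -0.23. Flt1, a VEGF receptor, was 1.02, 1.95 and 2.90 FPKM in vehicle and 0.759, 0.737 and 0.849 in the combination. Its combination mean was under 1 FPKM, so Flt1 passed the filter through the vehicle tumors. Angpt2, a vessel-destabilizing ligand of TIE2, was 2.95, 6.50 and 14.9 against 1.92, 1.88 and 2.54 FPKM, and the tip-cell gene Esm1 was 3.36, 3.59 and 19.0 against 1.01, 1.67 and 0.647. Vehicle replicate 3 was the highest tumor in each. Other endothelial genes overlapped, among them Plvap at 7.63 to 8.98 against 5.87 to 9.92 FPKM. Chemokines and their receptors had a median of 0.29 over 20 genes, and 0.04 without vehicle replicate 2. Of the 20, 1 was higher and 2 were lower without overlap, against 13.1% and 12.1% of all genes. Cxcr4, the receptor for CXCL12, was 3.15, 4.17 and 6.43 against 1.64, 1.23 and 2.35 FPKM, and Ackr3, its scavenging relative, was 3.22, 2.92 and 5.42 against 2.16, 2.37 and 0.854. Both were without overlap, at log2 differences of -1.33 and -1.13. Leukocyte adhesion genes had a median of 0.22 over 15 genes, with 2 higher and 2 lower without overlap, near the 13.1% and 12.1% of all genes. The median was 0.0004 without vehicle replicate 2, 0.03 without combination replicate 1 and 0.008 without combination replicate 3. The beta 2 integrin chain Itgb2 was 20.0, 13.3 and 17.6 FPKM in vehicle and 36.8, 23.8 and 29.8 in the combination, without overlap. The beta 1 chain Itgb1 was 155 to 164 against 130 to 146 FPKM, also without overlap. Vcam1 overlapped, and its mean difference of 0.10 changed sign when 1 tumor was left out.

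Genes that respond within minutes to stress or handling were lower too. Of 19 immediate early and heat shock genes, 6 did not overlap, all lower, against 12.1% of all genes, and the median was -0.33. At an unadjusted p under 0.05, 8 were lower, against 9.02% of all genes, and 2 without vehicle replicate 3 or combination replicate 1. For 1 of the 19 the combination mean was under 1 FPKM. Dusp1, a phosphatase that ends MAP kinase signalling, was 7.46, 14.3 and 10.5 FPKM in vehicle and 3.00, 3.49 and 4.52 in the combination (-1.50, SE 0.34, limma adjusted p = 0.162). Zfp36, which degrades cytokine mRNA, was 19.0, 32.2 and 24.9 against 13.2, 10.1 and 17.4 FPKM. The inducible chaperone Hspa1b was 11.4, 6.43 and 43.3 against 1.96, 5.26 and 3.96 FPKM, and its near-identical copy Hspa1a, with which fragments could be shared, was 1.94, 1.44 and 5.70 against 0.358, 0.923 and 0.769. Vehicle replicate 3 was the highest in both. The combination mean of Hspa1a was 0.683 FPKM, so it passed the filter through the vehicle tumors. Gadd45b, a stress-inducible gene, was 13.7, 59.8 and 25.6 against 7.59, 9.16 and 7.65 FPKM. In the kinase family of LKB1 itself, Sik1, a salt-inducible kinase that is also an immediate early gene, was 7.57, 21.8 and 16.002 against 4.10, 5.94 and 5.40 FPKM, while the AMPK subunit Prkab1 was 6.83 to 7.39 against 8.54 to 10.5. The whole family had a median of -0.02. RAS-MAPK output genes had a median of -0.12, with Spred3 and Dusp6 among 4 genes that were lower without overlap and Ccnd1 the 1 that was higher. These were of 22 tested, against 12.1% lower and 13.1% higher among all genes. Igfbp3, which binds insulin-like growth factors, was 22.1, 27.0 and 71.0 against 6.82, 12.7 and 12.8 FPKM. It belongs to the senescence-associated secretion list, whose median was -0.12 with 4 of 22 genes without overlap, all lower, against 12.1% of all genes.

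A pair of nuclear noncoding RNAs was noticed after the values were seen. Malat1 (chr19:5795690-5802672, GRCm38, minus strand), a long RNA of nuclear speckles, was 28.6, 52.1 and 36.5 FPKM in vehicle and 12.04, 11.6 and 12.9 in the combination (-1.63, SE 0.27, limma adjusted p = 0.108). Neat1, the scaffold of paraspeckles, was 9.90, 16.7 and 14.8 against 7.51, 7.87 and 2.44 FPKM. Both were without overlap.

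The largest positive differences belonged to genes of fat tissue and to genes near 0 in vehicle. Car3, a carbonic anhydrase of adipocytes and muscle, was 0.295, 0 and 0.0265 FPKM in vehicle and 251, 8.28 and 0.365 in the combination, and adipsin (Cfd) was 0.420, 0 and 0 against 668, 10.6 and 0.134. Lipoprotein lipase (Lpl) was 2.33, 1.41 and 0.972 against 50.7, 2.79 and 3.13 FPKM. In each, combination replicate 1 was the highest by far. Of 16 adipose genes tested, 8 had a vehicle mean under 1 FPKM and passed the filter through the combination tumors, so the list's direction was partly set by it. The median of 2.03 became 0.69 without combination replicate 1. Fasn, the fatty acid synthase, which tumor cells also use, was 51.5, 23.4 and 41.5 FPKM in vehicle and 164, 60.1 and 61.6 in the combination, with replicates 2 and 3 also above vehicle. Apoc1 was listed at 0 in all 3 vehicle tumors and was 7.64, 0.190 and 0.302 FPKM in the combination. Muscle genes had a median of 0.96 and none without overlap among 15, and the median became -0.20 without combination replicate 2. For 4 of the 15 the vehicle mean was under 1 FPKM, so they passed the filter through the combination tumors. Ms4a4c, also among the largest positive differences, was 3.38, 1.49 and 1.35 FPKM in vehicle and 5.68, 4.42 and 8.42 in the combination, and the interferon-inducible GTPase Tgtp1 was 2.74, 0.664 and 2.35 against 11.2, 2.78 and 10.1. Phf11a and Phf11b, neighbors with similar sequences, were at log2 differences of 1.80 and 1.60.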

How the data were processed

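RNA from 12 tumors was sequenced, and per the labels the authors aligned reads with HISAT2 to GRCm38/mm10. The deposited values are FPKM per gene symbol, one file per tumor, and the counting tool, annotation and strandedness were not given in the sources used here, so near-identical copies, overlapping genes and antisense genes are uncertain. Each file held 34745 entries, with 67 repeats of a symbol and 25 symbols that a spreadsheet had turned into dates. FPKM summed to between 263396 and 279110 in the 6 tumors. Depth was estimated from the steps between low values at 15421896 to 20272649 fragments.

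Groups were taken from the treatment labels. Genes with a mean of at least 1 FPKM over the 6 tumors were kept, log2(FPKM + 0.1) was fitted with limma 3.58.1 in R 4.3.3 over the 4 arms with a trend in the prior variance, and contrasts were combination minus vehicle, minus palbociclib and minus anti-PD-1, with Benjamini-Hochberg adjustment and a threshold of 0.05. Tests allowed either direction and used no block. The scripts were checked on simulated data. Gene positions are from GENCODE on GRCm38 and promoters from RefSeq on GRCm38.p6, searched over 250 bases before the start with Python 3.11.15 and pandas 2.3.3.

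Genes were named by 4 rules. They had an adjusted p under 0.05, were among the 12 largest positive or 12 largest negative differences with an unadjusted p under 0.05 and no overlap (predicted and RIKEN genes left out), were the 2 members of each list with the smallest p, or were fixed anchors. Further list members are named as examples, and Malat1, Neat1, Lgals3bp and Gm20559 were added after their values were seen. Some genes that these rules name are not reported here. The comparison and the 38 lists were chosen with earlier results of these data known. Other pseudocounts, filters, scalings and fits, and leaving out each tumor in turn, were tried as alternatives.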

Additional observations from a re-analysis of the deposited data

Results flagged for a closer look

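The effect of palbociclib differed between tumors with and without anti-PD-1 for 2 genes, by the interaction term of the limma fit over all genes. For Ccdc127 the effect of palbociclib was lower with anti-PD-1 by a log2 difference of -1.21 (Benjamini-Hochberg adjusted p = 0.0302), with all 3 combination tumors below the other 9. For Lgals3bp it was lower by a log2 difference of -1.90 (limma interaction, adjusted p = 0.0302). Palbociclib alone gave 64.5 to 92.2 FPKM against 19.3 to 25.7 in vehicle. The combination gave 37.4 to 50.4 FPKM against 43.5 to 48.4 after anti-PD-1 alone.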

How the results depend on the processing

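With 3 tumors per arm and 2 called genes, the values describe these tumors. The part of fragment depth in their spread was not tested. T cell genes and other genes near 0 FPKM rest on few fragments. Against vehicle, 2 genes were called in the main setting. The count was 1 with every gene above 0, 0 at a mean of 5 FPKM, 4 after centering on the median and 0 with the 6 tumors alone, where 1031 genes were higher and 890 lower at an unadjusted p under 0.05. At a mean of 5 FPKM, where fewer genes were tested, 898 genes were higher and 602 lower at an unadjusted p under 0.05, 818 were lower without overlap, and the comparisons with palbociclib and with anti-PD-1 called 0 and 0. Ccdc127 and Gm20559 averaged under 5 FPKM over the 6 tumors. That filter removed both, so their calls were not tested in that setting. TPM gave 764 genes higher at an unadjusted p under 0.05 and 960 higher without overlap. The comparison with palbociclib called 1 gene with a mean of 0.1 FPKM, every gene above 0, quantile normalization, centering on the median and the replicate block.

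With the replicate number as a block, 1 gene was called against vehicle. Tumors sharing a number correlated by 0.162, -0.0115 and 0.177 in their deviations from the arm means. Tumors with different numbers correlated by -0.180 to 0.0427. With 3 tumors per arm these values cannot tell whether the numbers pair tumors.

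Leaving out 1 tumor gave 1 to 49 called genes, 624 to 1904 higher and 611 to 1331 lower at an unadjusted p under 0.05, 1466 to 3080 higher and 1355 to 2233 lower without overlap, 1 to 5 called against palbociclib and 1 to 14 against anti-PD-1. The count called against vehicle was 49 without vehicle replicate 1, 6 without combination replicate 2, 5 without anti-PD-1 replicate 1, 3 without anti-PD-1 replicate 2, and 1 without vehicle replicate 2 or 3, combination replicate 1 or 3, or palbociclib replicate 2. Against anti-PD-1 it was 14 without combination replicate 2, and against palbociclib 5 without palbociclib replicate 2. Signs turned with 1 tumor left out for 8 of the genes named by rule. Col1a1 ran from -1.87 to 0.56 (0.38 without vehicle replicate 1), Ckm from -1.62 to 2.63 (-0.28 and -0.53 without vehicle replicates 2 and 3), Vcam1 from -0.21 to 0.56 (-0.07 and -0.04 without vehicle replicate 3 and combination replicate 3) and Ccl2 from -0.46 to 0.28. H2-K1 ran from -0.041 to 0.48, Stk11 from -0.17 to 0.036, Cdk6 from -0.80 to 0.22 and Arg1 from -0.67 to 0.12. Of the further list members given as examples, Prf1 (-0.51 to 0.37), Plvap (-0.34 to 0.037), Cdk4 (-0.017 to 0.17) and Dtl (-0.078 to 0.30) also turned. The cause was not tested.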
